A study of Mus musculus with 6 samples.

Results

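The miR-183 cluster of hairpins (Mir183, Mir96 and Mir182) gives rise to the mature arms mmu-miR-183-5p, mmu-miR-183-3p, mmu-miR-96-5p and mmu-miR-182-5p, which were the 4 of 199 miRNAs in the count table whose names start with miR-183, miR-96 or miR-182. They were taken by name. RefSeq lists 6 mature arms for the 3 hairpins, and the remaining arms, miR-96-3p and miR-182-3p, were not analysed here. Small RNA was sequenced from 6 libraries of mouse intestinal organoids, epithelial cultures grown in Matrigel from isolated small intestinal crypts. Of these, 3 libraries came from organoids given BMP4 (0.5 µg/ml, 4 days), a growth factor of the intestinal mesenchyme, and 3 from organoids given PBS. The labels name no strain, sex or age, and they leave unsaid whether replicates are separate cultures. A p-value here therefore covers only library-to-library spread, part of which can be technical.

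The miR-183 cluster is conserved across vertebrates and is best known from sensory cells, where it is abundant in photoreceptors and in the hair cells of the inner ear. Changes in the seed of miR-96 cause progressive hearing loss in humans and mice. The cluster is also expressed in many epithelia and is often raised in carcinomas. The seed, bases 2 to 8 of a miRNA, is the part that pairs with target mRNAs, and near-identical seeds give the arms of this cluster overlapping but not equal target sets.

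The sequences below show how close the 5p arms are, with the seed in capitals and each arm read from RefSeq (GRCm38.p6).
mmu-miR-183-5p: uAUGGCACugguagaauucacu
mmu-miR-96-5p: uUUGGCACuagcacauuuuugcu
mmu-miR-182-5p: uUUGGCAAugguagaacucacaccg
mmu-miR-183-3p: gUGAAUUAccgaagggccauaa
Counted from the 5′ end, miR-183-5p differed from miR-96-5p within the seed by A2U alone, and miR-96-5p differed from miR-182-5p by C8A alone. Between miR-183-5p and miR-182-5p both changes, A2U and C8A, were present. All 3 of the 5p arms held UGGCA at positions 3 to 7, which 5 of 1679 mature mouse miRNAs in RefSeq hold there (0.298%, these 3 included). No other miRNA of the count table shared a full seed with any of the 4 arms among the 177 that matched a RefSeq name, and the only RefSeq miRNA with the seed of miR-96-5p was miR-1271-5p, which was not analysed here. Over the whole arm, miR-183-5p and miR-182-5p were identical at 18 of 22 positions, miR-183-5p and miR-96-5p at 13 of 22, and miR-96-5p and miR-182-5p at 12 of 23.

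The hairpins lie on the minus strand of chromosome 6 (GRCm38.p6), with Mir183 at 30169668 to 30169737, Mir96 at 30169446 to 30169551 and Mir182 at 30165918 to 30165992. Mir183 and Mir96 are separated by 116 bases and Mir96 and Mir182 by 3453 bases. All 3 lie within the span of the long non-coding RNA gene Mirc35hg of RefSeq, at 30158640 to 30174125. In GENCODE M21 no annotated gene other than the hairpins overlapped the stretch from Mir182 to Mir183. The Mir183 hairpin is given because it is the one with both arms counted, and its capitals mark the 5p arm at bases 6 to 27 and the 3p arm at bases 45 to 66.
Mir183: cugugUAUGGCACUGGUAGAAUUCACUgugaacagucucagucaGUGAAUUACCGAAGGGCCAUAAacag

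**Figure D1:**
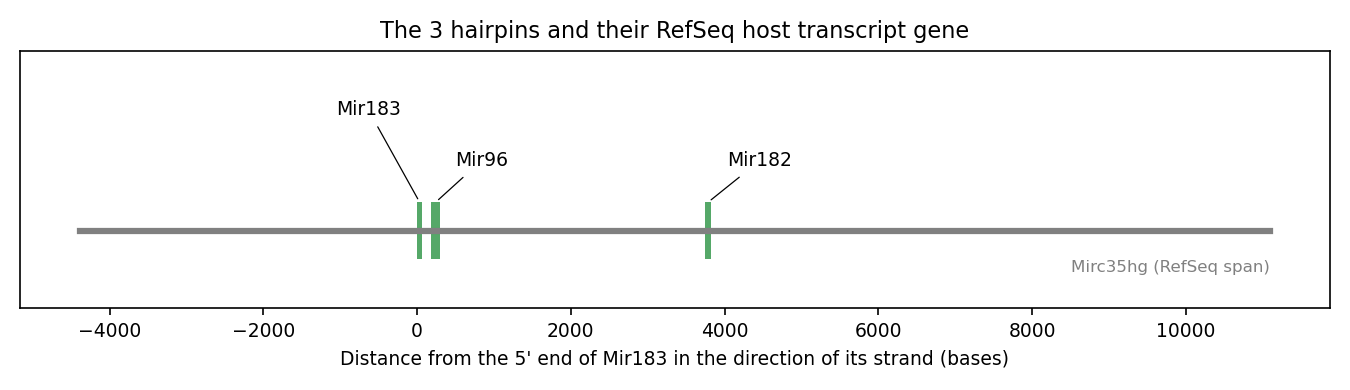
Position of the 3 hairpins (green bars, to scale) within the RefSeq span of Mirc35hg (grey line), as distance in bases from the 5′ end of Mir183 along its strand. Mir183 and Mir96 sit 116 bases apart and Mir182 a further 3453 bases downstream.

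Total counts ranged from 259811 to 3486409 per library. Arms of miR-192, miR-194 and miR-215, which intestinal epithelium expresses strongly, took 36.2 to 39.4% of counts in PBS and 77.4 to 79.6% in BMP4, so a level relative to all counts and a level relative to the bulk of the miRNAs differ widely between the groups. Levels below are given in CPM (counts divided by library size, on one common scale) after TMM scaling (the trimmed mean of M values, under which most miRNAs are taken as steady; factors of 1.78 to 1.97 in PBS and 0.375 to 0.651 in BMP4), unless they are given as a share of counts. Over all tested miRNAs the log2 fold change had a median of 0.03 with TMM and -1.78 with total counts. BMP4 replicate 2 had the lowest factor. Epithelial miRNAs of the miR-200 family were abundant, at 127121 to 141580 CPM of all counts in PBS and 30631 to 43833 in BMP4. Of 14 names listed as markers of stromal, immune and erythroid cells, miR-126a and miR-155 had a row, together at 135 to 161 CPM of all counts in PBS and 28.0 to 37.3 in BMP4; the others were not analysed here. In these bulk samples, fewer cells of a type and less RNA per cell cannot be told apart.

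Mature miR-183-5p dominated the cluster in every library. Its part of the cluster reads was 86.6% ± 0.497 under PBS and 87.3% ± 4.41 under BMP4 (both SD, n = 3), and it ranked 18 to 19 among the 199 miRNAs by counts in PBS and 13 to 21 in BMP4. miR-96-5p followed with 10.4% ± 0.915 and 8.82% ± 4.997 (SD, n = 3), and miR-182-5p with 2.77% ± 0.426 and 3.76% ± 0.692 (SD, n = 3). The 3p arm of miR-183, the strand that is mostly discarded, held 0.214% ± 0.0331 and 0.116% ± 0.0552 (SD, n = 3). The order of the arms was the same in 5 libraries. In BMP4 replicate 2, miR-182-5p lay above miR-96-5p, with 225 reads against 169.

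Under BMP4 0 of the 4 arms passed the threshold (edgeR quasi-likelihood F test, adjusted p under 0.05), where 30.3% of the 195 tested miRNAs passed, 17.4% higher and 12.8% lower. At an unadjusted p under 0.05, 1 arm passed by edgeR and 1 by DESeq2, where 37.9% of all tested miRNAs did by edgeR. Groups did not overlap for 1 arm, miR-183-3p, against 43.6% of all miRNAs. The median log2 fold change of the 4 arms was 0.15, beside 0.03 over all miRNAs.

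miR-183-5p, the most abundant arm, was read 3118, 22172 and 24394 times in the PBS libraries and 3484, 4749 and 12222 times after BMP4. Scaled, this was 6103, 5543 and 5871 CPM in PBS and 5404, 12692 and 5385 CPM in BMP4. BMP4 replicates 1 and 3 lay just under the PBS libraries and BMP4 replicate 2 far above all others. The log2 fold change was 0.42 ± 0.33 (SE, n = 3 per group; 95% interval -0.27 to 1.11; edgeR adjusted p = 0.365), and without BMP4 replicate 2 it was -0.12 (95% interval -0.53 to 0.29; edgeR adjusted p = 0.704). The alternatives gave adjusted p-values between 0.000196 (edgeR with total counts, where the fold change was -1.53) and 0.942.

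miR-182-5p, the smallest of the 5p arms by reads, had 227, 155 and 181 CPM in PBS, from 116, 619 and 754 counts. In BMP4 it had 193.9, 601 and 245 CPM, from 125, 225 and 555 counts. Again BMP4 replicate 2 stood apart, and BMP4 replicate 1 lay within the PBS range. It shifted by 0.88 ± 0.41 on the log2 scale (SE, n = 3 per group; 95% interval 0.02 to 1.74), the largest shift of the 4 arms in size, but missed the threshold (edgeR adjusted p = 0.122, unadjusted 0.0458). The value depended on single libraries. Without BMP4 replicate 2 it was 0.24 (edgeR adjusted p = 0.616), and without BMP4 replicate 1 it was 1.16 and passed (edgeR adjusted p = 0.0416), in a fit where 16.1% of miRNAs were called higher. Its adjusted p ran from 0.0202 to 0.616 over the alternatives.

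miR-96-5p, the arm whose seed is altered in inherited deafness, had 667, 731 and 709 CPM in PBS, from 341, 2924 and 2945 counts. In BMP4 it had 838, 452 and 638 CPM, from 540, 169 and 1449 counts. The BMP4 values lay on both sides of the narrow PBS range, and here BMP4 replicate 2 was the lowest library. The log2 fold change was -0.13 ± 0.33 (SE, n = 3 per group; 95% interval -0.82 to 0.56; edgeR adjusted p = 0.795). It was 0.06 without BMP4 replicate 2 (edgeR adjusted p = 0.895). Over the alternatives the adjusted p ran from 0.00122 (edgeR with total counts, at -1.88) to 0.954.

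miR-183-3p was close to the limit of detection, with 7, 50 and 71 reads in the PBS libraries and 5, 3 and 24 after BMP4. On the CPM scale this was 13.7, 12.5 and 17.1 in PBS and 7.76, 8.02 and 10.6 in BMP4, where 3 counts were worth 5.87 CPM in PBS replicate 1 and 8.02 CPM in BMP4 replicate 2. Every BMP4 value lay under every PBS value. Its shift of -0.65 ± 0.44 on the log2 scale (SE, n = 3 per group; 95% interval -1.56 to 0.27) did not pass (edgeR adjusted p = 0.299, from 0.000813 to 0.658 over the alternatives).

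**Figure D2:**
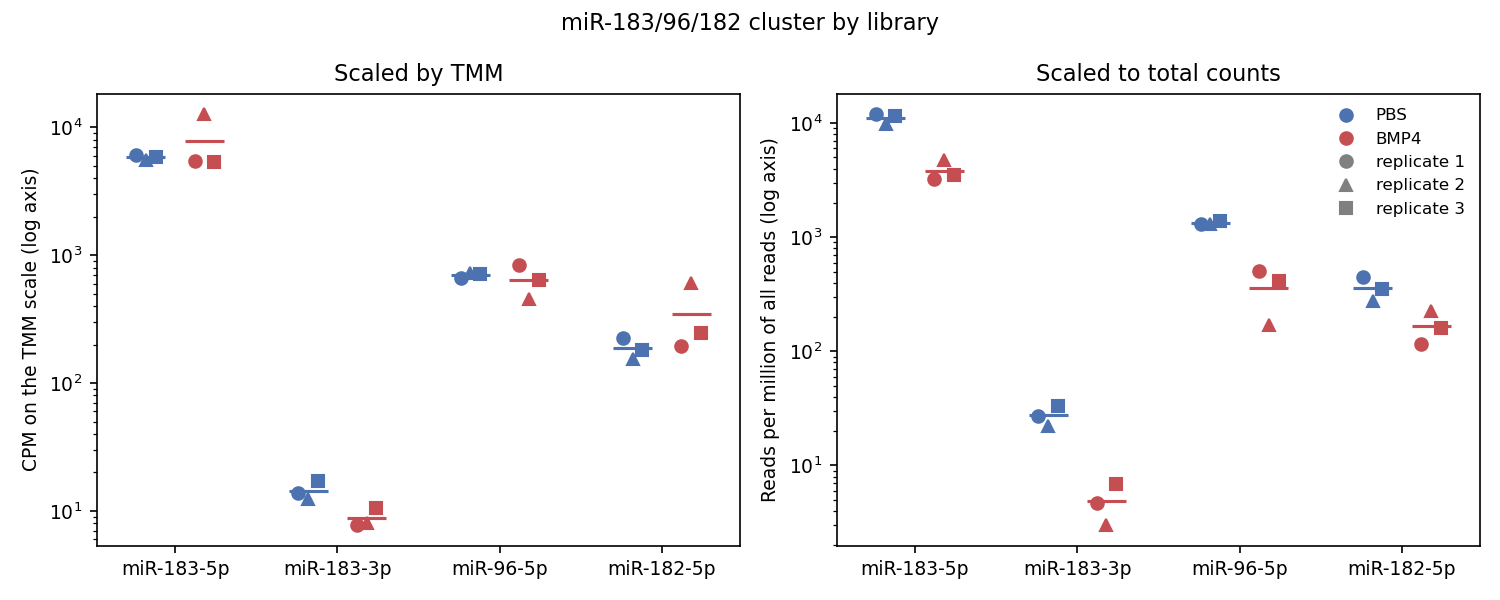
Level of each arm by library, as CPM scaled by TMM (left) and as CPM of all counts (right), both on log axes; bars are group means of 3 libraries. On the TMM scale the groups overlap for the 3 5p arms and BMP4 replicate 2 is highest for miR-183-5p (12692 CPM) and miR-182-5p (601 CPM) and lowest for miR-96-5p (452 CPM), whereas on the total count scale every BMP4 point lies under every PBS point of the same arm.

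Relative to all counts, the cluster held 1.38, 1.15 and 1.32% of reads in PBS and 0.387, 0.515 and 0.409% in BMP4, with no overlap between the groups. The difference was -0.846 percentage points, with an exact permutation p of 0.1 (2-sided, n = 3 per group), the smallest that 3 libraries against 3 allow, and 0.3 adjusted over the 6 ratios and shares tested. With total counts as the scale all 4 arms were called lower by edgeR, as were 81.0% of all miRNAs (miR-183-5p at -1.53 and miR-96-5p at -1.88, adjusted p = 0.000196 and 0.00122). Once those intestinal arms (miR-192, miR-194, miR-215) were left out of the total, the cluster took up 2.06% ± 0.198 under PBS and 2.07% ± 0.394 under BMP4 (both SD, n = 3), and these differed by 0.0138 percentage points, which was smaller than the spread between replicates. The same total in the edgeR fit gave log2 fold changes of 0.03 for miR-183-5p, -0.33 for miR-96-5p, 0.47 for miR-182-5p and -0.87 for miR-183-3p, with 0 of 4 called and 0 of 4 at an unadjusted p under 0.05, where 27.2% and 35.4% of all miRNAs were.

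**Figure D3:**
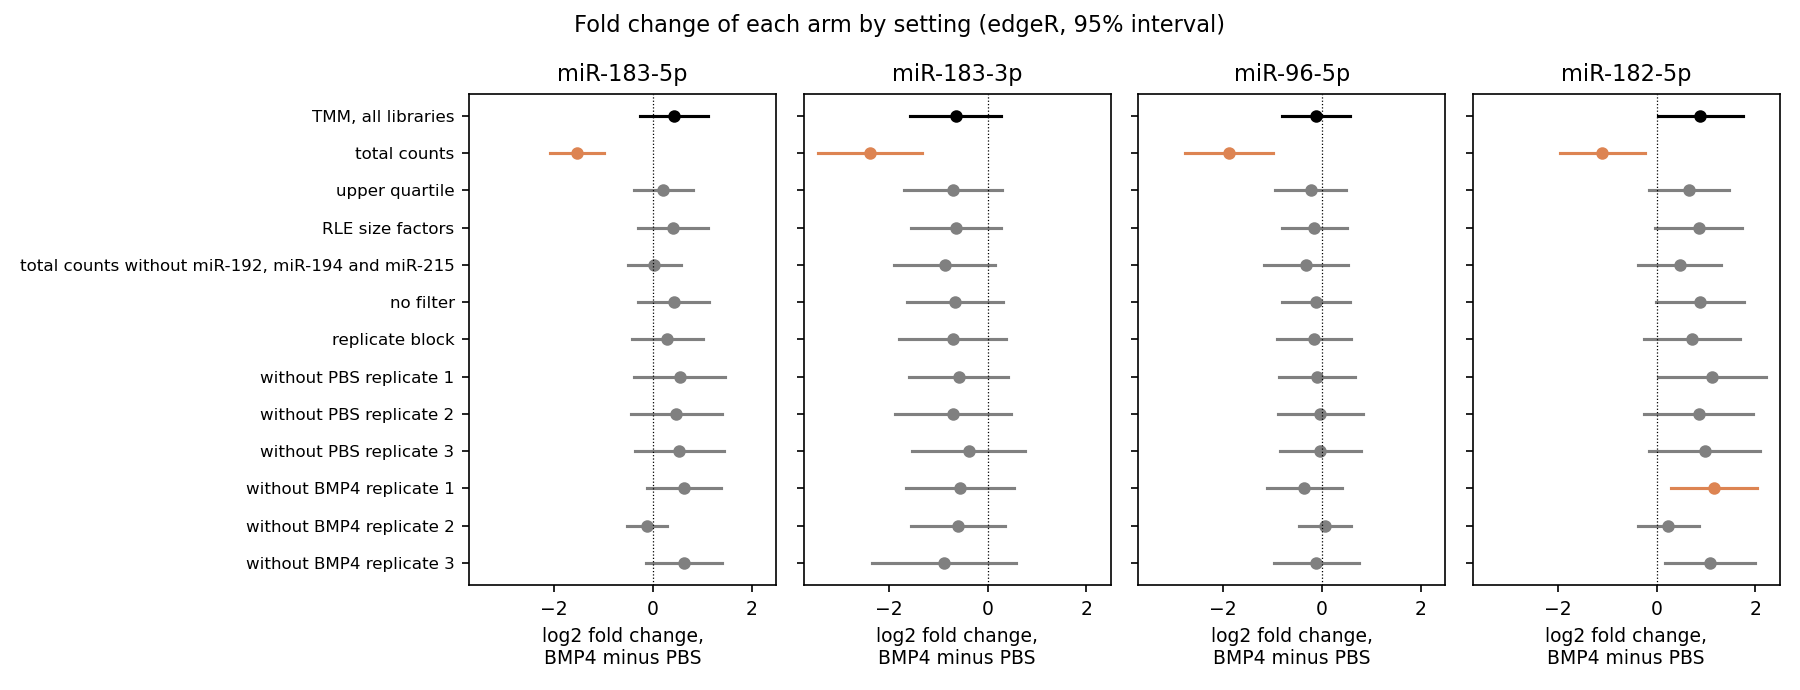
Log2 fold change (BMP4 minus PBS, edgeR) of each arm with its 95% interval, by scaling and by library left out; black marks the TMM fit with all libraries, orange an adjusted p under 0.05 and grey all others. With total counts all 4 arms are under 0, and leaving out BMP4 replicate 2 moves miR-183-5p from 0.42 to -0.12 and miR-182-5p from 0.88 to 0.24.

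Ratios between arms of a library do not depend on scaling and were used to ask whether the arms kept their proportions. miR-183-5p had 9.14, 7.58 and 8.28 reads per miR-96-5p read in PBS and 6.45, 28.1 and 8.43 in BMP4. BMP4 replicate 2 departed from the other 5 libraries, which lay between 6.45 and 9.14. In BMP4 replicate 2 miR-96-5p held 3.28% of cluster reads (95% Wilson interval 2.83 to 3.81) against 12.999% (12.01 to 14.1) and 10.2% (9.68 to 10.7) in BMP4 replicates 1 and 3. The log2 ratio was 3.05 ± 0.13 in PBS and 3.52 ± 1.13 in BMP4 (SD, n = 3; exact 2-sided permutation p = 0.8, adjusted 0.9), and the difference of 0.47 became -0.17 without BMP4 replicate 2. Mir183 and Mir96 are the neighbouring pair of the cluster.

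Mir183 and Mir182 are the most distant pair. miR-183-5p had 26.9, 35.8 and 32.4 reads per miR-182-5p read in PBS and 27.9, 21.1 and 22.02 in BMP4, with overlap between the groups through BMP4 replicate 1. The difference of the log2 ratio was -0.42 (exact 2-sided permutation p = 0.2, adjusted 0.4, n = 3 per group) and ran from -0.54 to -0.33 with each library left out in turn. miR-96-5p had 2.94, 4.72 and 3.91 reads per miR-182-5p read in PBS and 4.32, 0.751 and 2.61 in BMP4. For this pair the log2 ratio of miR-182-5p over miR-96-5p differed by 0.89 (exact 2-sided permutation p = 0.3, adjusted 0.45, n = 3 per group), and by 0.17 without BMP4 replicate 2. For all 3 ratios between 5p arms the groups overlapped, and 3 libraries against 3 allow no exact p under 0.1.

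The 2 arms of Mir183 were read at very unequal rates. In PBS 445, 443 and 344 reads of the 5p arm were counted per 3p read, and in BMP4 697, 1583 and 509. Among the 34 hairpins with both arms at a mean of 10 or more counts, Mir183 had the second highest preference for its 5p arm in PBS. All BMP4 ratios lay above all PBS ratios. This was not particular to Mir183 among the 34 hairpins. The groups also lay apart for miR-27a and miR-1981, with BMP4 higher, and for miR-17, miR-18a, miR-30e and miR-671, with BMP4 lower. The difference of the log2 ratio was 0.93 ± 0.50 (SE, n = 3 per group; 95% interval -0.22 to 2.08) and did not pass by limma (adjusted p = 0.362, from 0.331 to 0.621 over its alternatives), where 2.94% of the 34 hairpins were called (0 to 2 hairpins over the alternatives). The ratio of BMP4 replicate 2 rests on 3 reads of miR-183-3p (0.0583% of cluster reads, 95% Wilson interval 0.0198 to 0.171). Without this library the difference was 0.50 (limma adjusted p = 0.621).

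**Figure D4:**
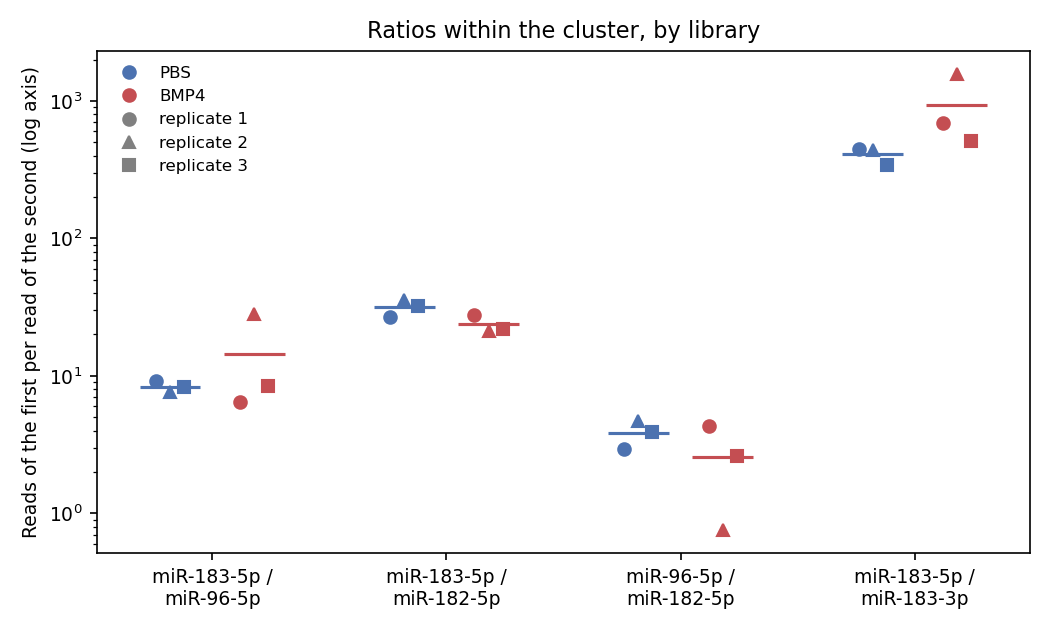
Reads of the first arm per read of the second in each library, on a log axis, with bars at group means of 3 libraries. BMP4 replicate 2 (red triangle) lies apart for the ratios with miR-96-5p (28.1 and 0.751), while miR-183-5p per miR-182-5p stays between 21.1 and 35.8 in all 6 libraries. It is also the highest for miR-183-5p per miR-183-3p (1583, resting on 3 reads of miR-183-3p), ahead of 697 in BMP4 replicate 1.

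In each BMP4 library the level of every miRNA was also set against the mean of the other BMP4 libraries. In BMP4 replicate 2, miR-182-5p stood 1.46 and miR-183-5p 1.23 above that mean on the log2 scale, with 8 and 20 of 195 miRNAs further above, while miR-96-5p stood at -0.69, with 52 miRNAs further below. The SD of this departure over all miRNAs was 1.24 in BMP4 replicate 2, against 0.908 and 0.644 in BMP4 replicates 1 and 3 and 0.495 to 0.749 in PBS. In the 3 PBS libraries the departures of the 5p arms lay between -0.39 and 0.44. Of the arms, only miR-182-5p departed in BMP4 replicate 2 by more than that library's SD. In BMP4 replicate 1 the signs were reversed, at -0.98 for miR-182-5p, -0.61 for miR-183-5p and 0.64 for miR-96-5p. In BMP4 replicate 3 the values were -0.48, -0.62 and 0.05. The mean used for both of these libraries includes BMP4 replicate 2. The 5p arms thus spread in opposite directions in BMP4 replicate 2 and, with signs reversed, in BMP4 replicate 1. BMP4 replicate 2 was the library that departed most and also had the lowest TMM factor (0.375). The part of that in the result was not tested.

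**Figure D5:**
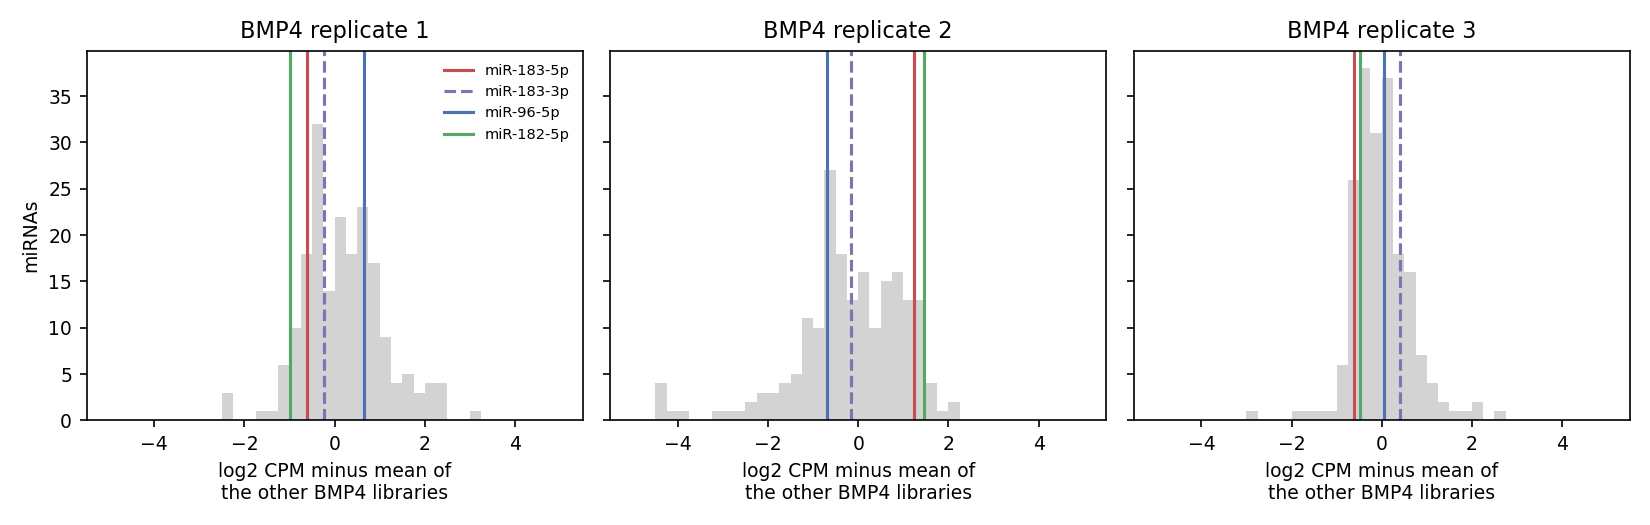
Histograms of log2 CPM in each BMP4 library minus the mean of the other BMP4 libraries, over 195 miRNAs, with the 4 arms as lines. In BMP4 replicate 2 miR-182-5p (1.46) and miR-183-5p (1.23) lie on the right and miR-96-5p (-0.69) on the left. In BMP4 replicate 1 the sides are reversed (-0.98, -0.61 and 0.64).

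The miR-200 family, which maintains epithelial identity by repressing Zeb transcription factors, was the nearest abundant epithelial group for comparison. In PBS 9.74, 9.01 and 10.4 reads of the miR-183 cluster were counted per 100 reads of the family, and in BMP4 8.82, 16.8 and 9.55. These groups overlapped (log2 difference 0.21, exact 2-sided permutation p = 0.9, adjusted 0.9, n = 3 per group; -0.08 without BMP4 replicate 2). The 4 most abundant members, miR-200b-3p, miR-200c-3p, miR-200a-3p and miR-429-3p, had log2 fold changes of 0.16, -0.43, 0.31 and 0.08, with edgeR adjusted p-values of 0.299 to 0.854. Of 8 tested members 1 passed, miR-200a-5p at 0.90 ± 0.32 (SE, n = 3 per group; edgeR adjusted p = 0.0405, from 0.0138 to 0.171 over the alternatives), where 17.4% of all tested miRNAs were called higher. Leaving out BMP4 replicate 2 kept the call, and leaving out any of the other libraries ended it (0.0993, 0.0589 and 0.101 for PBS replicates 1, 2 and 3, and 0.0564 and 0.0723 for BMP4 replicates 1 and 3). With total counts, the setting that gave 0.0138, the value of miR-200a-5p was reversed at -0.95. A split like that of miR-183-5p and miR-96-5p was looked for, after the data were seen, between miR-200b-3p and its cluster neighbours. miR-200b-3p had 9.36, 7.93 and 5.56 reads per miR-200a-3p read in PBS and 4.68, 10.1 and 6.20 in BMP4, so BMP4 replicate 2 was the highest of the 6 libraries there too, but close to PBS replicate 1. Per miR-429-3p read, 47.1, 41.3 and 26.5 reads of miR-200b-3p were counted in PBS and 25.4, 61.1 and 38.7 in BMP4, and here BMP4 replicate 2 lay further above the other libraries.

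miR-375 and miR-7 mark enteroendocrine cells, the sensory cells of the gut epithelium. Per 100 reads of miR-375-3p, 285, 178 and 137 cluster reads were counted in PBS and 366, 403 and 335 in BMP4, with every BMP4 library above every PBS library. The log2 ratio was 0.93 ± 0.54 in PBS and 1.88 ± 0.13 in BMP4 (SD, n = 3), a difference of 0.95 that had an exact 2-sided permutation p of 0.1, the smallest possible, and 0.3 adjusted. It ran from 0.71 to 1.23 with each library left out in turn. miR-375-3p itself stood at -0.65 ± 0.34 (log2, SE, n = 3 per group; edgeR adjusted p = 0.164, from 3.89e-05 to 0.658 over the alternatives), and at -1.02 without BMP4 replicate 2 (edgeR adjusted p = 0.000245). The more abundant miR-7a-5p stood at -0.41 ± 0.31 (log2, SE, n = 3 per group; edgeR adjusted p = 0.346, from 8.32e-06 to 0.662 over the alternatives), and at -0.81 without BMP4 replicate 2 (edgeR adjusted p = 0.000396). In that fit 35.9% of all miRNAs were called. miR-7b-5p, at a mean of 513 CPM, went the other way at 0.15 ± 0.37 (log2, SE, n = 3 per group, edgeR adjusted p = 0.786). Without BMP4 replicate 2 miR-7b-5p stood at -0.34 (edgeR adjusted p = 0.415). The low arm miR-7a-1-3p stood at -0.61 ± 0.48 (log2, SE, n = 3 per group, edgeR adjusted p = 0.366). By edgeR with TMM, 0 of the 4 tested miR-375 and miR-7 arms passed with all libraries (0 at an unadjusted p under 0.05, and 0 by DESeq2), with a median of -0.51 beside 0.03 over all miRNAs. Of all tested miRNAs 30.3% passed in that fit. Other scalings made calls: upper quartile called miR-375-3p (-0.83, edgeR adjusted p = 0.0412), and the total without miR-192, miR-194 and miR-215 called miR-375-3p (-1.01, 0.0273) and miR-7a-5p (-0.77, 0.0164). In these 2 fits 30.8% and 27.2% of all miRNAs were called. Total counts called all 4 arms lower, as they did 81.0% of all miRNAs. Of 10 names listed as miRNAs of sensory organs and neurons, miR-9 and miR-218 had a row. miR-9-5p had 3 to 31 counts and did not pass the filter on low counts with all libraries. With no filter it stood at 2.09 ± 1.20 (log2, SE, n = 3 per group, edgeR adjusted p = 0.231). It passed the filter without BMP4 replicate 3 and was called higher there (2.72, edgeR adjusted p = 0.00649), in a fit where 13.8% of all miRNAs were called higher. It also passed the filter without BMP4 replicate 1 and was not called (2.67, edgeR adjusted p = 0.0708). Because its entry to the fit changed with the library left out, no rise is read from this call. Without PBS replicate 2 miR-9-5p stood at 1.28 (edgeR adjusted p = 0.508), and without PBS replicate 3 at 1.28 (edgeR adjusted p = 0.550). miR-218-5p had 153, 293 and 271 CPM in PBS and 105, 90.9 and 103 CPM in BMP4 and fell by 1.27 ± 0.37 on the log2 scale (SE, n = 3 per group; edgeR adjusted p = 0.0140, from 7.69e-05 to 0.116 over the alternatives). It did not pass when PBS replicate 2 (0.116) or 3 (0.104) was left out.

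The miRNAs most alike to each arm were sought by Pearson correlation of log2 CPM over the 6 libraries among the other miRNAs with a mean of 10 CPM or more. These correlations are descriptions, and the libraries share their scaling. For miR-183-5p the highest were miR-28a-3p (r = 0.993), miR-200b-3p (0.953) and miR-30d-5p (0.9495). All of these were highest in BMP4 replicate 2, and without it the same values were 0.628, 0.240 and 0.429 over 5 libraries. For miR-182-5p they were miR-30a-5p (0.986), miR-1191a (0.960) and miR-140-3p (0.955), with 0.893, 0.677 and 0.723 without that library. For miR-96-5p they were let-7c-2-3p and let-7a-1-3p (0.964 for each, since these rows hold identical values) and miR-32-5p (0.956). Like miR-96-5p, these were lowest in BMP4 replicate 2, at 26.7 and 88.2 CPM, and without it r was 0.942 and 0.826. The low arm miR-183-3p was most like miR-340-5p (0.947), miR-181b-5p (0.946) and miR-34c-5p (0.938), each lower in every BMP4 library than in any PBS library, and r stayed at 0.926, 0.935 and 0.914 without BMP4 replicate 2. The 4 arms thus shared no most alike miRNA.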

How the data were processed

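The authors trimmed reads with bbmap, kept inserts of miRNA length, mapped them with miRDeep2 and counted mature miRBase miRNAs with its quantifier; the deposited values are raw counts per miRNA and library. Genome build, miRBase release and the rule that kept 199 miRNAs were not given in the sources used here. Members and lists were chosen with earlier results of these data known. Counts were fitted with edgeR 4.0.16 in R 4.3.3 (filterByExpr, which left 195 miRNAs, TMM, 2-sided quasi-likelihood F test, Benjamini-Hochberg over all tested). Standard errors were derived from the fold changes with their F statistics. Arm ratios, log2((5p + 0.5)/(3p + 0.5)), were compared with limma 3.58.1. Other ratios used the same pseudocount and exact 2-sided permutation. Named were all 4 members, the 3 miRNAs most alike to each, and abundant members of compared lists; miR-9-5p, miR-218-5p and miR-200a-5p, and the ratio of miR-200b-3p to miR-200a-3p and miR-429-3p, were chosen after their values were seen. Alternatives were other scalings, DESeq2 1.42.0, no filter, the replicate number as a block, and each library left out. Fits were tested on simulated data. Within a group, libraries differed by more than sampling noise (chi-square per degree of freedom of 48.5 or more). Intervals and floors (3 counts) leave out PCR duplication and cover counting error only. Sequences and positions are those of RefSeq for GRCm38.p6, matched by name.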

Additional observations from a re-analysis of the deposited data

How the results depend on the processing

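With total counts, 171 miRNAs were called (13 higher, 158 lower) against 59 (34 and 25) with TMM, 4 of 4 cluster arms were called against 0, and miR-183-5p (-1.53) and miR-182-5p (-1.10) turned from positive to negative; miR-183-3p (-2.38) and miR-96-5p (-1.88) became calls in the same direction. With each library left out in turn, 35 to 71 miRNAs were called (24 to 38 higher and 11 to 33 lower), 0 to 1 arm was called, the log2 fold change ran from -0.12 to 0.63 for miR-183-5p, from 0.24 to 1.16 for miR-182-5p, from -0.36 to 0.062 for miR-96-5p and from -0.88 to -0.38 for miR-183-3p, and 0 to 1 hairpins had a changed arm ratio. The fewest miRNAs (35) were called without PBS replicate 3. Upper quartile scaling, RLE size factors, DESeq2, no filter and the total without miR-192, miR-194 and miR-215 kept the direction of all 4 arms and called 0 of 4 (0 to 1 at an unadjusted p under 0.05), where 27.1 to 30.8% of all miRNAs were called and 69 to 75 had an unadjusted p under 0.05. That total moved the difference of the cluster's share of counts from -0.846 to 0.0138 percentage points. A mean of 50 counts in both arms left 0 hairpins called and Mir183 untested. Deviations of same-numbered libraries from their group means were hardly correlated (0.03, 0.07 and -0.01). The labels do not say whether libraries were paired, and these values cannot tell. With the replicate block 49 miRNAs, 0 arms of the cluster and 2 hairpins were called. For changes of value with the scaling, the cause was not tested. Depth limited miR-183-3p most, with 3 to 24 counts in BMP4.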
